A study of Mus musculus with 6 samples.

Results

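The genes described here encode the machinery that copies DNA and the enzymes that supply its building blocks: 50 genes, chosen by symbol, and all 50 were found among the 23279 genes tested. In muscle precursor cultures with an active form of beta-catenin, 43 of the 50 (86.0%, against 59.7% of all genes) had a lower mean than in controls, with a median log2 difference of -0.71 against -0.08 over all genes. The helicase loader Cdc6, the catalytic polymerase subunits Pola1 and Pole, both primase subunits, the ligase Lig1 and the thymidylate synthase Tyms were lower in activated cultures by factors of 2.72 to 3.46, with no overlap between the groups. Dbf4, a subunit of the firing kinase, was 3.50-fold lower, the largest difference of the set, and the chromatin remodeller Hells 2.92-fold, also without overlap. The origin recognition subunits Orc2, Orc3 and Orc4, the clamp loader subunit Rfc1, the polymerase delta subunit Pold2 and both subunits of ribonucleotide reductase had slightly higher means. No gene of the set passed an adjusted p of 0.05 (limma, smallest 0.211, Cdc6), so every difference below is given as a measured value and not as a call.

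The cells were primary myoblasts, the dividing precursors of skeletal muscle fibres, grown from limb muscle of mice of the C57bl6N strain. All 6 cultures carried the same alleles: Pax7-CreERT2, a recombinase that is expressed where the muscle stem cell gene Pax7 is active and works only when bound by tamoxifen, and 1 copy of the beta-catenin gene with loxP sites around exon 3. Loss of that exon removes the residues whose phosphorylation leads to destruction of the protein, so the protein accumulates. The 3 activated cultures received 4-hydroxytamoxifen in ethanol and the 3 control cultures received ethanol alone. Both groups had been moved from growth medium with 20% FBS to medium with 2% HS for 24 hours, a step that starts differentiation. For all 6 cultures the sample descriptions also give 5 passages and the growth factor bFGF at 2 ng per ml. Since tamoxifen was given to the activated cultures only, effects of the drug or of recombinase activity and effects of active beta-catenin cannot be told apart. The share of recombined cells in these cultures is not given in the sources used here, and nothing in the labels ties each culture to an animal of its own. The p-values therefore describe culture-to-culture spread, which may be partly technical.

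DNA is copied once in each cell cycle from many origins. The origin recognition complex marks them, Cdc6 and Cdt1 load the ring-shaped MCM helicase onto them, and Cdc7 with Dbf4 then triggers firing by helping Cdc45 and the GINS complex to join the helicase. Primase and DNA polymerases alpha, delta and epsilon make the new strands on a sliding clamp, and ligase seals them. Many of these genes are targets of E2F transcription factors and are transcribed as cells enter S phase, and their transcripts become scarcer as myoblasts leave the cell cycle to differentiate.

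Promoter stretches with an E2F-type sequence are shown for 9 of the 24 genes found to hold it. The 9 are examples and were not chosen by a stated rule. Cdt1 and Gins3 hold it too, with log2 differences of -0.10 and -0.07, and are not shown. RefSeq promoters (GRCm38.p6, 250 bases before to 50 bases after an annotated start) were found for 42 of the 50 genes, in 54 promoters, since some genes have several starts. The letters TTCCCGC occurred on either strand in 19 of these 54 promoters (35.2%), against 4.60% of all 32851 promoters in the table. The letters TTGGCGC occurred in 11 (20.4%), against 2.45% of all promoters. The set was chosen by symbol and many of its genes are E2F targets, so these shares do not depend on the array values. The first 7 stretches below come from genes with lower means in activated cultures. The last 2, Rrm1 and Orc3, come from genes with slightly higher means and hold the same letters. Capitals mark the matches, on either strand, and each stretch is written in the direction of its gene and ends before the start of transcription:
Pola1 (chrX:93632255-93632339, minus strand): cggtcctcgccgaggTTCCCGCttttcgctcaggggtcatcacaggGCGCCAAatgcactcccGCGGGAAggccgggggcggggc
Cdc6 (chr11:98907998-98908034, plus strand): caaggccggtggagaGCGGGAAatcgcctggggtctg
Mcm5 (chr8:75109330-75109381, plus strand): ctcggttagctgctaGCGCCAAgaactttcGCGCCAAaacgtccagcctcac
Mcm6 (chr1:128359730-128359829, minus strand): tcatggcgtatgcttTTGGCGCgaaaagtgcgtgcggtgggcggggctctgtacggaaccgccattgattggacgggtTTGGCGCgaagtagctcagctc
Prim1 (chr10:128015185-128015214, plus strand): tggaggcctgtcttgTTCCCGCcaattctc
Hells (chr19:38930914-38930950, plus strand): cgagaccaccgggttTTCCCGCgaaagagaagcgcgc
Uhrf1 (chr17:56303274-56303310, plus strand): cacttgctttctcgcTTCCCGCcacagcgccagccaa
Rrm1 (chr7:102441613-102441649, plus strand): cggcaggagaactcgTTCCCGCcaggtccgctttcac
Orc3 (chr4:34614961-34614997, minus strand): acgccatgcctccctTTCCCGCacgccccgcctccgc

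Either E2F-type sequence was present in a promoter of 24 of the 42 matched genes. Those 24 genes had a median log2 difference of -0.80, and 8 of them had all activated arrays below all control arrays, as 7.40% of all genes did. The other 18 had a median of -0.51, and 7 of them had separated arrays. For TTCCCGC alone the medians with and without the letters were close, at -0.70 and -0.67, and for TTGGCGC they were -0.84 and -0.54. Presence of the letters is a description and not evidence of binding. The other sequences searched, on both strands, were the CHR element TTTGAA (16.7% of the genes' promoters against 17.9% of all), the CCAAT box CCAAT (53.7% against 37.4%) and the Sp1-type GGGCGG (72.2% against 35.7%). The median differences of genes with and without each were -0.73 and -0.69 for TTTGAA, -0.54 and -0.84 for CCAAT, and -0.72 and -0.36 for GGGCGG. None of these differences between genes with and without a motif was tested. Matches of different motifs may share letters.

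The arrays had median log2 values of 4.04 to 4.36 over all probe sets and SDs of 1.72 to 2.12, and control culture 3 had the lowest mean correlation with the others (0.895 against 0.923 to 0.946). Control cultures 2 and 3 and activated culture 3 are named below where a value turns on them. Myoblast identity genes had array means of 7.42 to 8.28 over 8 markers, whose levels ran from percentile 58.9 (Myf5) to 99.8 (Chrna1) among the genes tested. In activated cultures 6 of the 8 had higher means. The other 2, Pax7 (-0.60 ± 0.31, SE) and Vcam1 (-1.38 ± 0.38), had lower ones. Axin2, a feedback gene of the beta-catenin pathway, stood at 4.55, 3.81 and 4.58 in control cultures 1, 2 and 3 and at 5.50, 5.85 and 6.54 in the activated cultures. The beta-catenin gene Ctnnb1 differed by 0.02 ± 0.31 (SE) on the log2 scale, and its single value in the table does not check the loss of 1 exon.

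Across the whole set, 20 of 50 genes (40.0%) were lower at an unadjusted p under 0.05 in limma, where 3.42% of all genes were. At the same level 0 of 50 were higher, where 4.44% of all genes were. In 18 genes (36.0%) the highest activated array was under the lowest control, against 7.40% of all genes, and the reverse held in 0 of 50 genes, against 5.40% of all. The direction was the same in every numbered pair of cultures in 28 genes that were lower (56.0%, against 25.0% of all genes) and in 2 that were higher, Orc4 and Rrm1 (against 16.6% of all). With the replicate number as a block, 22 were lower at the unadjusted level (7.01% of all genes) and 0 higher (9.63% of all genes). The genes share a cell cycle programme and are not independent of each other. After adjustment over all genes, limma called 0 genes of the table (0% of 23279), and with the block it called 31 (0.133%), of which 0 belong to this set. After repeated quantile normalization the block called 0 genes. The smallest adjusted p in the set with the block was that of Lig1 (limma, 0.0566). Next came Cdc6, Pola1, Dnmt1 and Pole, at limma adjusted p of 0.0638, 0.0721, 0.0851 and 0.0910 with the block. Without the block theirs were 0.211, 0.252, 0.533 and 0.377. The count of 20 lower genes was 12 without activated culture 1 and 12 without activated culture 2. In bulk RNA, fewer cells in S phase and less of these transcripts in each cell cannot be told apart.

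**Figure D1:**
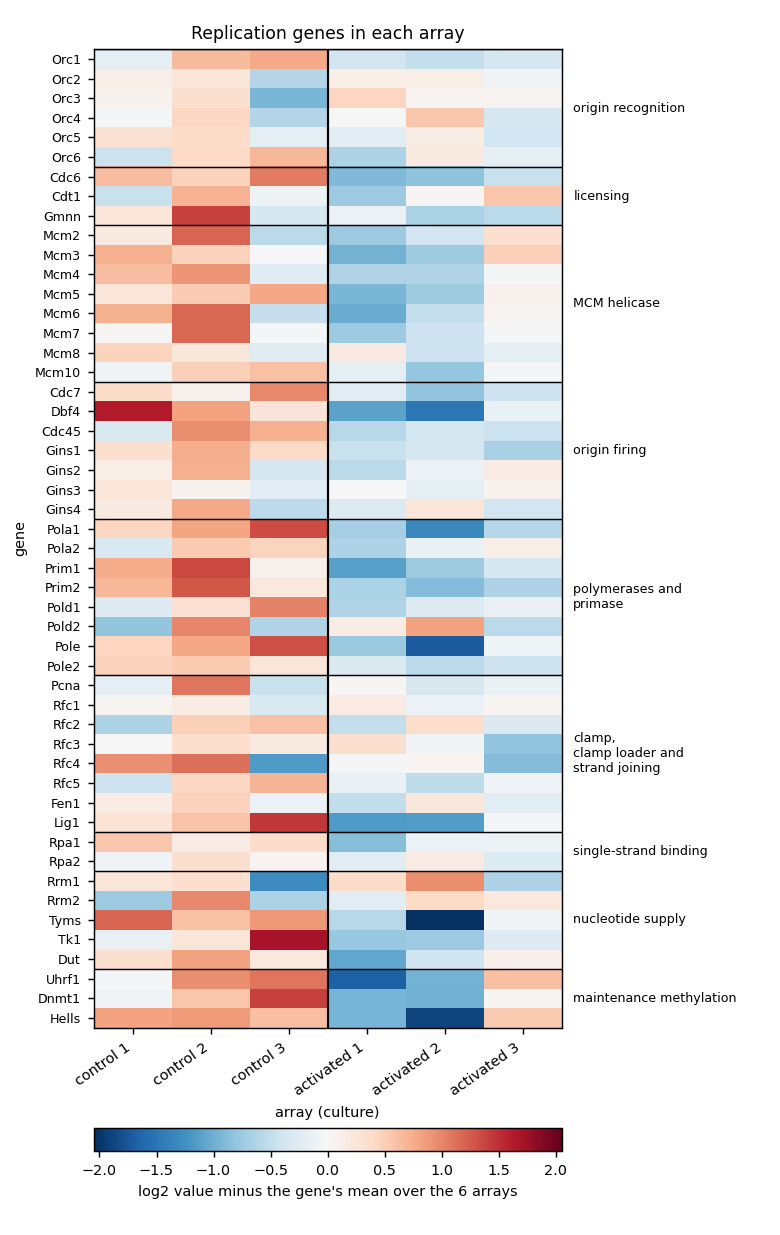
Heat map of the 50 genes (rows, grouped by role) in the 6 arrays (columns); the colour gives the log2 value minus the mean of that gene over the 6 arrays, red for higher and blue for lower. Most rows are red in the controls and blue in the activated cultures, with control culture 2 the reddest column and activated culture 3 the palest of its group.

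Origin recognition genes had the median nearest to 0, with 3 of 6 lower (59.7% of all genes) and a median log2 difference of -0.09. Orc1, the subunit whose level follows the cell cycle, was at 4.02, 4.87 and 5.00 in control cultures 1, 2 and 3 and at 3.83, 3.72 and 3.86 in the activated cultures. The activated values were close together and all lay under the controls, a difference of -0.83 ± 0.30 (SE, limma adjusted p = 0.561). Orc5, a core subunit, was at 5.96, 6.02 and 5.44 in the controls and at 5.41, 5.80 and 5.25 in the activated cultures. Orc4 was at 6.50, 6.96 and 5.93 in the controls and at 6.55, 7.09 and 6.19 in the activated cultures. The groups overlapped in both. The differences of Orc2, Orc3 and Orc4 were 0.15, 0.36 and 0.14, and they turned to -0.11, -0.02 and -0.12 without control culture 3. Orc2 and Orc4 also turned, to -0.05 and -0.07, after repeated quantile normalization. Orc6 differed by -0.43 ± 0.36, and by -0.75 and -0.20 without control cultures 1 and 3. Orc5 differed by -0.32 ± 0.26, and by -0.50 without control culture 3 and -0.20 without activated culture 3.

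Of the licensing genes, Cdc6 separated the groups most clearly. Cdc6, the ATPase that recruits the helicase to origins, was at 5.48, 5.32 and 5.91 in the controls and at 3.93, 4.01 and 4.39 in the activated cultures. The highest activated value lay well under the lowest control, and the mean was 2.76-fold lower (log2 difference -1.46 ± 0.25, SE; limma adjusted p = 0.211). The within-pair differences were nearly equal, at -1.55, -1.31 and -1.52. Its partner Cdt1 showed no such separation, with 5.20, 6.38 and 5.56 in the controls and 4.92, 5.68 and 6.24 in the activated cultures. Its difference of -0.10 ± 0.43 turned to 0.23 without control culture 2 and to 0.25 without activated culture 1. Gmnn, or geminin, the inhibitor of Cdt1, was at 5.71, 6.87 and 5.13 in the controls and at 5.35, 4.81 and 4.92 in the activated cultures. The groups overlapped, and its difference of -0.88 ± 0.44 was -0.39 without control culture 2, the array with the highest value.

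All 8 genes of the MCM group had lower means in the activated cultures, from -0.29 for Mcm8 to -1.05 for Mcm5, with a median of -0.80. Mcm5, a subunit of the ring, was at 5.33, 5.61 and 5.88 in the controls and at 4.14, 4.36 and 5.17 in the activated cultures. It was the only one of the 8 whose groups did not overlap, a 2.07-fold difference (limma adjusted p = 0.465). Mcm4, another ring subunit, was at 7.04, 7.31 and 6.15 in the controls and at 5.78, 5.79 and 6.36 in the activated cultures. Here activated culture 3 lay above control culture 3 and the groups overlapped. Mcm8, which acts mainly in recombination and is not part of the ring, was at 5.26, 5.03 and 4.55 in the controls and at 4.98, 4.38 and 4.61 in the activated cultures. Its difference was -0.49 without control culture 3 and -0.13 without control culture 1.

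The ring subunits were lower in pairs 1 and 2 and mixed in pair 3. In pairs 1 and 2 the 6 ring genes Mcm2 to Mcm7 were all lower in the activated culture, by log2 differences from -0.78 for Mcm7 to -1.75 for Mcm6 in pair 1 and from -1.20 for Mcm3 to -1.67 for Mcm6 in pair 2. In pair 3 Mcm2, Mcm3, Mcm4, Mcm6 and Mcm7 were at or above the control, by 0.89, 0.47, 0.22, 0.53 and 0.01, and Mcm5 was lower by a log2 difference of -0.70. Without control culture 2 the differences of Mcm2, Mcm6 and Mcm7 over all arrays shrank from -0.54, -0.97 and -0.79 to -0.08, -0.61 and -0.40, and without activated culture 1 that of Mcm3 shrank from -0.81 to -0.53. Mcm10, which links the helicase to polymerase alpha, differed by -0.67 ± 0.30 and was lower in every pair.

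The genes of origin firing were divided between a kinase pair that was lower and GINS subunits with unequal differences. Dbf4, the activating subunit of the firing kinase, was at 7.49, 6.69 and 6.12 in the controls and at 4.77, 4.37 and 5.72 in the activated cultures. It had the largest difference of the 50 genes, 3.50-fold lower (log2 difference -1.81 ± 0.46, SE; limma adjusted p = 0.368), although in pair 3 it differed by only -0.40. Its catalytic partner Cdc7 differed by -0.97 ± 0.30 and the helicase cofactor Cdc45 by -0.91 ± 0.34, both without overlap between the groups. Gins1 was at 4.33, 4.74 and 4.41 in the controls and at 3.54, 3.63 and 3.33 in the activated cultures. Its groups were tight and separate, with a 2.00-fold difference (limma adjusted p = 0.313). Gins3 was at 6.03, 5.84 and 5.56 in the controls and at 5.79, 5.58 and 5.85 in the activated cultures. It did not separate the groups (-0.07 ± 0.22), and its sign turned to 0.06 after median centring. Gins2 and Gins4 differed by -0.34 ± 0.34 and -0.29 ± 0.37, both with overlap. Without control culture 2 these were -0.06 and 0.03, and without control culture 3 they were -0.60 and -0.64. The difference among the 4 subunits was not tested.

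**Figure D2:**
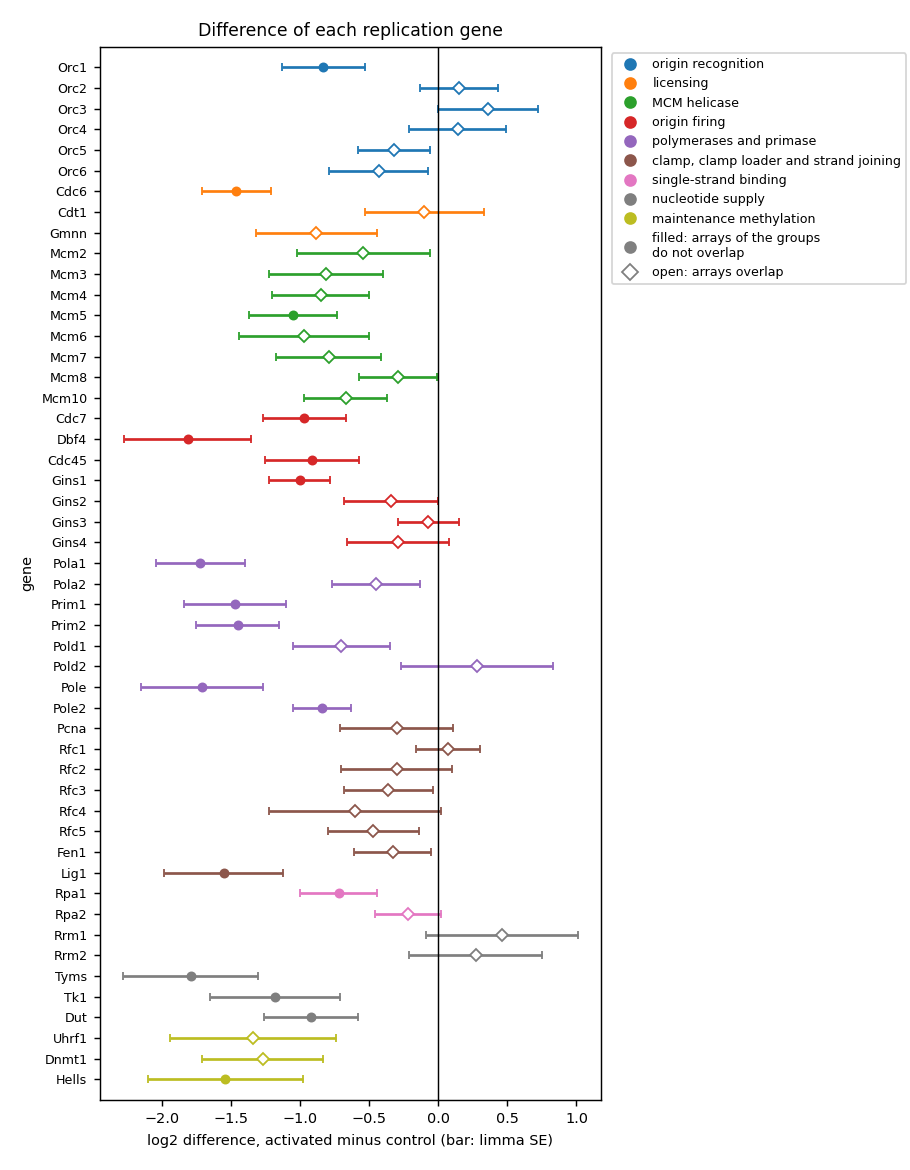
Log2 difference of each of the 50 genes, activated minus control (horizontal axis), with limma's standard error as bars and the role as colour; filled circles mark the 18 genes whose groups did not overlap and open diamonds the other 32. The filled circles lie between -1.81 (Dbf4) and -0.72 (Rpa1), and 7 open diamonds lie above 0.

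The polymerase and primase genes had the lowest median among the groups of more than 3 genes, -1.14. Of the 8, 7 were lower (59.7% of all genes) and 5 were lower without overlap (7.40% of all genes). Pola1, the catalytic subunit of polymerase alpha that starts each strand, was at 5.81, 6.18 and 6.72 in the controls and at 4.69, 4.06 and 4.79 in the activated cultures. The lowest control lay well above the highest activated value, and the mean was 3.29-fold lower (log2 difference -1.72 ± 0.32, SE; limma adjusted p = 0.252). Prim2, the large primase subunit, was at 5.58, 6.18 and 5.12 in the controls and at 4.25, 4.01 and 4.27 in the activated cultures. Its catalytic partner Prim1 differed by nearly the same amount, -1.47 ± 0.37 against -1.45 ± 0.30.

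Pole, the catalytic subunit of the leading-strand polymerase, was 3.26-fold lower (log2 difference -1.71 ± 0.44) and its second subunit Pole2 1.79-fold lower (-0.84 ± 0.21), both without overlap. The accessory subunit of polymerase alpha, Pola2, differed by -0.45 ± 0.32 and the catalytic subunit of the lagging-strand polymerase, Pold1, by -0.70 ± 0.35, with overlapping groups. Both were lower in every pair, the difference of Pold1 was -0.37 without control culture 3, and that of Pola2 was -0.72 without control culture 1 and -0.23 without activated culture 1. Pold2, the accessory subunit of polymerase delta, was at 5.62, 7.42 and 5.81 in the controls and at 6.58, 7.25 and 5.87 in the activated cultures. Its controls spread more widely than the groups differed (0.28 ± 0.55), and the sign turned to -0.05 without control culture 1 and to -0.06 without activated culture 2.

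Among the clamp, clamp loader and strand joining genes, Lig1 stood apart from the rest in size. Lig1, the ligase that seals the lagging strand, was at 6.47, 6.78 and 7.65 in the controls and at 5.03, 5.05 and 6.17 in the activated cultures. The groups did not overlap and the within-pair differences were even, at -1.44, -1.73 and -1.48, with a 2.93-fold lower mean (limma adjusted p = 0.401, and 0.0566 with the replicate block). Pcna, the sliding clamp itself, was at 9.10, 10.40 and 8.85 in the controls and at 9.32, 8.97 and 9.17 in the activated cultures. Only control culture 2 lay above the activated values, and the difference of -0.30 ± 0.41 became 0.18 without it.

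The clamp loader subunits were likewise not separated. Rfc5, a small subunit, was at 6.32, 7.16 and 7.44 in the controls and at 6.60, 6.22 and 6.69 in the activated cultures. Rfc1, the large subunit, was at 5.91, 6.02 and 5.55 in the controls and at 6.03, 5.74 and 5.91 in the activated cultures. The groups overlapped in both, with differences of -0.47 ± 0.33 and 0.07 ± 0.23; the latter turned to -0.06 after repeated quantile normalization. Without control culture 1 the difference of Rfc5 was -0.80 and without control culture 3 it was -0.24. Rfc2, Rfc3 and Rfc4 differed by -0.30, -0.36 and -0.60, each with overlap. Single arrays moved all 3: Rfc2 was -0.70 without control culture 1 and -0.07 without control culture 3, and Rfc3 was -0.61 without activated culture 1 and -0.04 without activated culture 3. Rfc4 was -1.33 without control culture 3, its lowest array, and -0.18 without control culture 2. Fen1, the flap nuclease of the lagging strand, differed by -0.33 ± 0.28, and by -0.53 and -0.15 without activated cultures 2 and 1. Fen1 had the lowest level of the set (percentile 28.7 among the genes tested), and Orc1, Gins1 and Pole2 also lay under the median gene, where background can compress differences.

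Both subunits of the single-strand binding protein in this set had lower means, and the difference between them was not tested. The third subunit, Rpa3, is among the further genes below and differed by -0.97 ± 0.50 (SE) with overlap. With 1 array left out its difference was between -1.41 and -0.64. Rpa1, the large subunit, was at 6.75, 6.36 and 6.57 in the controls and at 5.33, 6.08 and 6.10 in the activated cultures. The groups did not overlap, but the difference of -0.72 ± 0.28 (limma adjusted p = 0.592) was -0.47 without activated culture 1. Rpa2, the middle subunit, was at 5.56, 5.96 and 5.69 in the controls and at 5.40, 5.80 and 5.35 in the activated cultures. Its groups overlapped (-0.22 ± 0.24), although each activated culture was a little below the control of its number, and the difference was -0.36 without activated culture 2 and -0.11 without control culture 2. In pair 1 Rpa1 and Rpa2 differed by -1.41 and -0.16, in pair 2 by -0.28 and -0.15 and in pair 3 by -0.47 and -0.35.

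The nucleotide supply genes did not share a direction, with 3 of 5 lower (59.7% of all genes). The difference between the enzymes was not tested. Tyms, which makes thymidylate, was at 9.31, 8.73 and 9.01 in the controls and at 7.55, 6.07 and 8.06 in the activated cultures. The activated values spread widely and still lay under every control, a 3.46-fold difference (log2 difference -1.79 ± 0.49, SE; limma adjusted p = 0.402). Dut, the dUTPase that keeps uracil out of DNA, was at 6.54, 7.05 and 6.43 in the controls and at 5.15, 5.81 and 6.32 in the activated cultures. Its difference of -0.92 ± 0.34 was -0.61 without activated culture 1. The salvage kinase Tk1 differed by -1.18 ± 0.47 without overlap, and by -0.64 without control culture 3. These 3 genes act in thymidylate supply.

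The reductase that converts ribonucleotides into all 4 DNA precursors had no lower mean. Rrm2, its small subunit, was at 6.62, 8.36 and 6.73 in the controls and at 7.16, 7.78 and 7.59 in the activated cultures. The large subunit Rrm1 was at 8.11, 8.22 and 6.58 in the controls and at 8.25, 8.82 and 7.23 in the activated cultures. The groups overlapped in both, at 0.27 ± 0.48 and 0.46 ± 0.55. After repeated quantile normalization the differences of Rrm2 and Rrm1 were 0.01 and 0.18. Rrm1 was higher in each pair, by 0.14, 0.60 and 0.65, and the overall difference of Rrm1 was -0.06 without control culture 3. The sign of Rrm2 turned to -0.04 without control culture 1 and to -0.03 after cyclic loess.

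The 3 genes that copy methylation marks onto new DNA had the lowest median of all the groups, -1.34, and were lower in every pair. Dnmt1, the maintenance methyltransferase, was at 7.32, 7.96 and 8.80 in the controls and at 6.44, 6.41 and 7.41 in the activated cultures. Uhrf1, which brings Dnmt1 to freshly copied DNA, was at 5.76, 6.75 and 6.89 in the controls and at 4.12, 4.83 and 6.42 in the activated cultures. In both, activated culture 3 reached above control culture 1, so the groups overlapped. Hells, a chromatin remodeller needed for DNA methylation, was at 6.22, 6.27 and 6.02 in the controls and at 4.45, 3.50 and 5.93 in the activated cultures. The controls of Hells were nearly equal, and activated culture 3 lay just under them. The differences were -1.27 ± 0.44, -1.34 ± 0.60 and -1.54 ± 0.56 (SE; limma adjusted p = 0.533, 0.639 and 0.561); that of Uhrf1 was -0.84 without activated culture 1 and that of Hells -0.98 without activated culture 2.

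The size of the difference varied between the numbered pairs. In pair 1, 39 of 50 genes were lower in the activated culture, with a median log2 difference of -0.61. In pair 2, 48 were lower, with a median of -1.08, and in pair 3, 31 were lower, with a median of -0.34. Of all 23279 genes, 12950, 12433 and 13468 were lower in pairs 1, 2 and 3, so the count in pair 3 was near that background. The polymerase and primase genes kept a median of -0.76 in pair 3, while the MCM genes had 0.14 there. Single cultures stood out: control culture 2 was the highest control in 29 of the 50 genes (25.6% of all genes), and activated culture 3 was the highest activated culture in 28 (31.8% of all genes). With pair 3 left out and the replicate number as a block, limma called 501 genes (2.15% of all), 11 of them in this set: Cdc6, Mcm3, Mcm4, Mcm6, Dbf4, Prim1, Prim2, Lig1, Tyms, Uhrf1 and Hells, all lower, at adjusted p from 0.00972 to 0.0491. Without pair 1 or without pair 2 the same fit called 0 genes. These fits have few arrays for their terms, so their p-values lean on variance pooled over genes. Pair 3, left out for the 501 calls, was the pair with the median difference nearest to 0. Without the block, leaving out activated culture 3 gave 28 called genes, and leaving out any other single array gave 0.

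**Figure D3:**
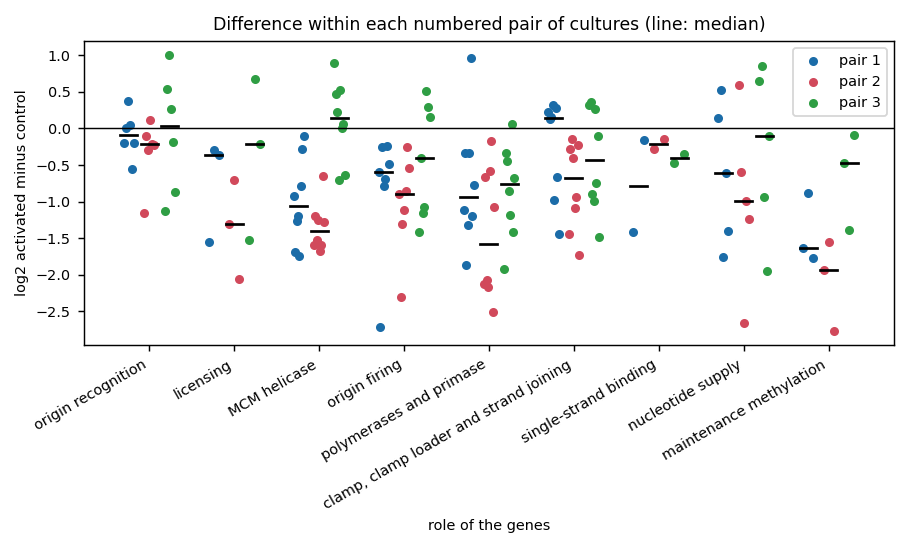
Log2 difference, activated minus control, within each numbered pair of cultures (colours) for every gene, arranged by role; short black lines are medians. Pair 2 lies lowest in most roles, and the MCM genes have a median of -1.06 in pair 1, -1.40 in pair 2 and 0.14 in pair 3.

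Other genes of DNA replication, chromatin assembly and nucleotide metabolism were measured alongside. Of 33 further fork and firing genes, 26 were lower (59.7% of all genes), with a median of -0.72. Of these, 15 were lower at an unadjusted p under 0.05 in limma (3.42% of all genes), and 14 without overlap (7.40% of all genes). The other 7 were higher, the polymerase delta subunit Pold4 most, by 1.28 ± 0.63 (SE) with overlap. With 1 array left out the difference of Pold4 was between 0.56 and 1.82. The end-resecting nuclease Exo1 was at 6.14 ± 0.43 (SD, n = 3) in the controls and 4.18 ± 0.44 in the activated cultures (limma adjusted p = 0.203). The polymerase-helicase linker Wdhd1 was at 6.26 ± 0.62 and 4.41 ± 0.19, and the firing factor Ticrr at 5.54 ± 0.17 and 3.94 ± 0.61. All 3 were without overlap. Of 13 chromatin assembly and methylation genes, 8 were lower, where 59.7% of all genes were, with a median of -0.13. The histone chaperone Nasp differed by -1.29 ± 0.31 (SE), the assembly factor subunit Chaf1a by -1.37 ± 0.45 and the histone chaperone Asf1b by -0.76 ± 0.31, which was -0.46 without control culture 2.

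The remaining nucleotide enzymes did not share this direction. Of 25 measured, 8 were lower (59.7% of all genes) and 17 higher, with a median of 0.09. At an unadjusted p under 0.05 in limma, 1 was lower (3.42% of all genes). That was the deoxycytidine kinase Dck, at 5.61 ± 0.56 (SD, n = 3) in the controls and 4.64 ± 0.03 in the activated cultures. The guanine nucleotide enzyme Impdh1 differed by 0.70 ± 0.33 (SE) and the folate enzyme Shmt1 by -0.58 ± 0.27. The former was 0.42 without activated culture 2 and the latter -0.37 without control culture 3. In all, 19 of 71 of these further genes (26.8%) were lower at that level, against 3.42% of all genes.

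**Figure D4:**
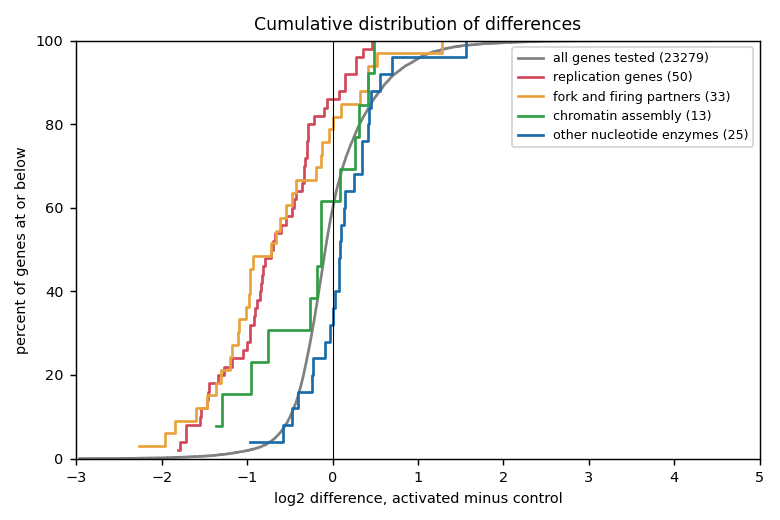
Cumulative distribution of the log2 differences, activated minus control (horizontal axis), as the percent of genes at or below each value, for the 50 replication genes, 3 lists of further genes and all 23279 genes. The curves of the replication genes and of the fork and firing partners lie to the left of the curve of all genes, with medians of -0.71 and -0.72 against -0.08, and that of the other nucleotide enzymes lies to the right at 0.09.

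Markers of the cell cycle and of muscle differentiation also differed between the groups, the former mostly lower and the latter mostly higher in activated cultures. Averaged over the 50 genes and centred on each gene's mean, the controls stood at 0.19, 0.65 and 0.20 and the activated cultures at -0.48, -0.41 and -0.15. For 13 measured proliferation markers the values were 0.06, 0.69 and 0.38 and then -0.60, -0.61 and 0.08. The proliferation antigen Mki67 was at 8.28, 8.94 and 8.21 in the controls and at 5.85, 4.99 and 7.79 in the activated cultures, again with activated culture 3 nearest the controls. Cyclin genes Ccne1 and Ccna2 differed by -1.17 ± 0.30 and -2.21 ± 0.58 (SE). Of the 13 markers 11 were lower (59.7% of all genes), 8 without overlap (7.40% of all genes).

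Of 18 muscle differentiation markers 17 were higher in activated cultures, 12 without overlap (5.40% of all genes), with a median of 1.69. Their centred means were -0.42, -0.26 and -1.81 in the controls and 0.73, 1.44 and 0.32 in the activated cultures. The cell cycle inhibitor Cdkn1a was at 9.42, 9.77 and 8.28 and then 10.01, 12.41 and 11.76, and the developmental myosins Myh3 and Myh8 differed by 1.32 ± 0.33 and 2.17 ± 0.59 (SE). Control culture 3 had the lowest mean of these markers, and control culture 2 the highest mean of the replication genes. The part of differentiation in the differences of the replication genes was not tested. Markers of other cell types were given the same comparison. Over all genes 59.7% were lower and 7.40% were lower without overlap. Of 7 endothelial markers 6 were lower, with array means of 3.39 to 3.60 in the controls and 3.16 to 3.37 in the activated cultures. Of 7 leukocyte markers 6 were lower, 4 without overlap, with means of 3.80 to 4.51 and 3.70 to 3.93. Levels of these 7 ran from percentile 12.6 (Ptprc) to 71.9 (Cd68) among the genes tested. Of 7 fibroblast markers 6 were lower, with means of 4.13 to 4.29 and 3.96 to 4.28. Single genes of that list differed more, Col3a1 by -0.95 ± 0.50 (SE) and Thy1 by 1.17 ± 0.41, both with overlap. Of 6 smooth muscle and pericyte markers 3 were lower, with means of 5.80 to 6.18 and 5.74 to 6.33. These means hide opposite differences. Rgs5, Pdgfrb and Myh11 differed by -1.78 ± 0.55, -0.21 and -0.16. Acta2, Tagln and Cspg4 differed by 1.08 ± 0.39, 0.68 ± 0.29 and 0.55. The part of these other cell types in the result was not tested.

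**Figure D5:**
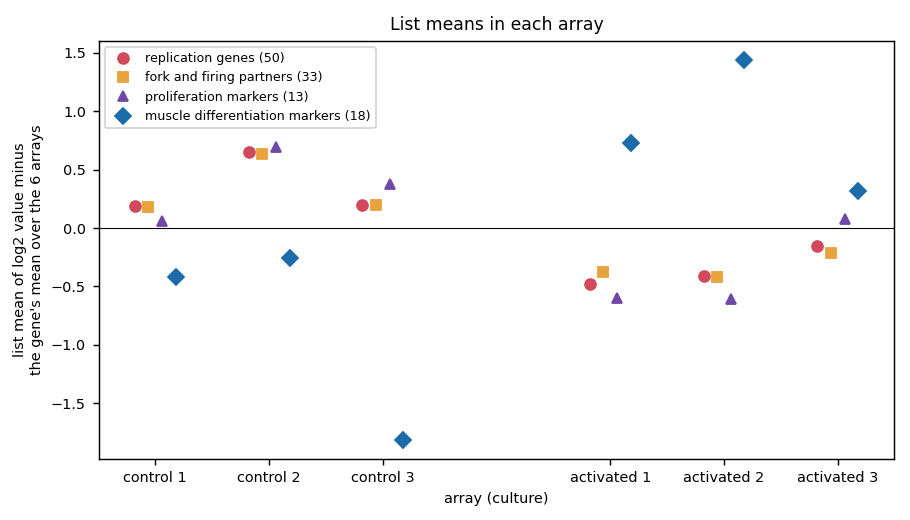
Mean over each gene list of the log2 value minus the gene's mean over the 6 arrays (vertical axis), for each array (horizontal axis). The replication genes, their fork partners and the proliferation markers lie above 0 in the 3 controls, and the muscle differentiation markers lie below 0 there and between 0.32 and 1.44 in the activated cultures.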

How the data were processed

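RNA from 3 control and 3 activated cultures was hybridised to Affymetrix arrays from 100 ng of total RNA. Log2 values of 24479 probe sets were deposited by the authors. The submitters' processing notes name RMA and Partek without saying what each did, and no source used here names a genome build. The platform annotation gave 1 symbol to 23281 probe sets, several to 0 and none to 1198. Where a symbol had several, the one with the highest mean was kept, leaving 23279 genes. limma 3.58.1 in R 4.3.3 fitted group as the only term to all genes, with no filter, two-sided tests and Benjamini-Hochberg adjustment, and was tested on simulated data. The number of arrays limits the precision.

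Replicate numbers are shared between groups, and deviations from the group means correlated at 0.38, 0.49 and 0.45 for numbers 1, 2 and 3. These values lie above the criterion of 0.1, so a fit with the number as a block was also run. Standard errors and adjusted p-values of single genes come from the fit without the block unless the block is named.

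The genes, lists and naming rule were chosen with earlier results of these data known. Values in every array are given for the 2 genes of each role with the smallest p and the 1 with the largest, and for Pcna and Gmnn; the arrays of Rrm1 were added after its values were seen. Of each other list, the 3 with the smallest p are named. Promoter sequences are from RefSeq.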

Additional observations from a re-analysis of the deposited data

How the results depend on the processing

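The alternatives were repeated quantile normalization, cyclic loess, median centring, leaving out dim genes, an intensity trend, the replicate block, quantile normalization with the block, each array left out and each pair left out with the block. The count of called genes over the table was 0 with the normalizations, filter and trend, 31 with the replicate block but 0 with the block after quantile normalization, 0 to 28 with 1 array left out and 0 to 501 with the block and a pair left out. The lower members (20 with all arrays) numbered 12 to 22 and 16 to 27 under those last settings, the higher members 0 to 1 in both, the members with separated arrays 18 to 26 and 21 to 33 (28 without pair 1), the median difference -0.83 to -0.50 and -0.78 to -0.45, and the lower genes of the 3 further replication lists 15 to 21 and 17 to 24. Fewer arrays in themselves make separation more frequent. With the block 0 members were called. Median centring moved the median of all genes from -0.08 to 0.04 and gave 14 lower members and 12 with separated arrays; 46 members remained without dim genes. Of 50 members 38 kept their sign under each alternative run for them (16, less the dim filter for the 4 dim members). With quantile normalization, alone or with the block, the signs turned for Orc2 (-0.05), Orc4 (-0.07) and Rfc1 (-0.06). They turned with cyclic loess for Orc2 (-0.04), Orc4 (-0.06), Rfc1 (-0.04) and Rrm2 (-0.03), and with median centring for Cdt1 (0.03) and Gins3 (0.06). With 1 array left out, a turned sign appeared for Orc2 (-0.11 to 0.31), Orc3 (-0.02 to 0.61), Orc4 (-0.12 to 0.39), Cdt1 (-0.42 to 0.25), Gins3 (-0.19 to 0.04), Gins4 (-0.64 to 0.03), Pold2 (-0.06 to 0.85), Pcna (-0.60 to 0.18), Rfc1 (-0.07 to 0.17), Rrm1 (-0.06 to 0.90) and Rrm2 (-0.04 to 0.83). With the block and a pair left out it appeared for Orc2 (-0.05 to 0.28), Cdt1 (-0.49 to 0.20), Gins3 (-0.25 to 0.03, 0.02 without pair 1), Pold2 (-0.06 to 0.51), Pcna (-0.61 to 0.27), Rfc1 (-0.08 to 0.24), Rfc2 (-0.52 to 0.01) and Rrm2 (-0.03 to 0.69). The cause was not tested.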
